A study of Capra hircus with 6 samples.

Results

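Phototransduction is the chain of reactions by which a photoreceptor turns light into an electrical signal, and 41 of its genes were chosen by name for a comparison of goat pineal glands in puberty with pineal glands before puberty. Of these 41 genes, 40 had a row in the count table of 28244 genes, each with a single row, and the encephalopsin gene OPN3 matched no row and was not analysed here. In the retina an opsin that has absorbed light activates the G protein transducin, transducin releases the phosphodiesterase PDE6 from its inhibitory subunits, and the fall in cyclic GMP closes cation channels in the cell membrane. Opsin kinases and arrestins then shut the opsin off, and guanylate cyclases with their activator proteins restore cyclic GMP. Rods and cones use separate genes for many of these steps. Pinealocytes, the melatonin-secreting cells of the pineal gland, are related to photoreceptors, and in mammals they keep part of this gene set although light reaches the gland through the eyes and nerves, whereas the pineal gland of many other vertebrates senses light itself.

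The libraries were made from pineal glands of untreated female goats (Capra hircus), 3 in puberty and 3 in prepuberty, and were sequenced from total RNA. Puberty had been recognised by a swollen vulva and by mature follicles in the ovary, per the series description, and the ages of the goats are unstated. Whether the 6 libraries stand for 6 animals is unstated as well, and the p-values cover only the variation among libraries, part of which may be technical. Library totals were 18963195 to 20971065 counts in puberty and 18864451 to 20247370 in prepuberty. Defining genes of the pinealocyte were abundant: TPH1, which encodes the first enzyme of melatonin synthesis, had at least 2089 CPM (counts scaled to a common library total) in each library, and CRX, a transcription factor of photoreceptors and pinealocytes, at least 797. The summed CPM of 15 pinealocyte markers was 6466 to 7389 in puberty and 6460.3 to 6680 in prepuberty. In bulk tissue, fewer cells of a type and less RNA per cell cannot be told apart. Markers of retinal cells that are not photoreceptors were at or near 0 for POU4F1, POU4F2 and TFAP2A, each under 0.7 CPM in every library, while GRM6 and SLC17A6 of the same list carried nearly all of its summed 1394 to 1495 CPM in puberty and 1555 to 1644 in prepuberty. Puberty replicate 2 stood apart in choroid plexus genes, with 10785 summed CPM, against 660.4 and 1004 in the other puberty libraries and 614 to 872 in prepuberty.

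The 40 genes took 1.31%, 1.37% and 1.32% of all counts in the puberty libraries and 1.25%, 1.06% and 1.45% in the prepuberty libraries, so the shares of the groups overlapped. Levels of different genes are compared here only as FPKM, which divides counts by the listed gene length. By mean FPKM over the 6 libraries, 4 of the genes were among the 100 most abundant of the table and 14 among the top 1000. UNC119, which encodes a carrier of the lipid-modified transducin alpha subunit, ranked 13th, the calcium sensor recoverin (RCVRN) 41st, phosducin (PDC), which binds the transducin beta and gamma subunits, 55th, and the rod arrestin SAG 57th. These ranks rest on the listed lengths, which are 747 nt for UNC119, 1070 nt for RCVRN, 1445 nt for PDC and 1903 nt for SAG. At the other end, 36 of the 40 genes had a count in every library, and CNGA1, GUCY2F, GRK7 and OPN4 did not.

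**Figure D1:**
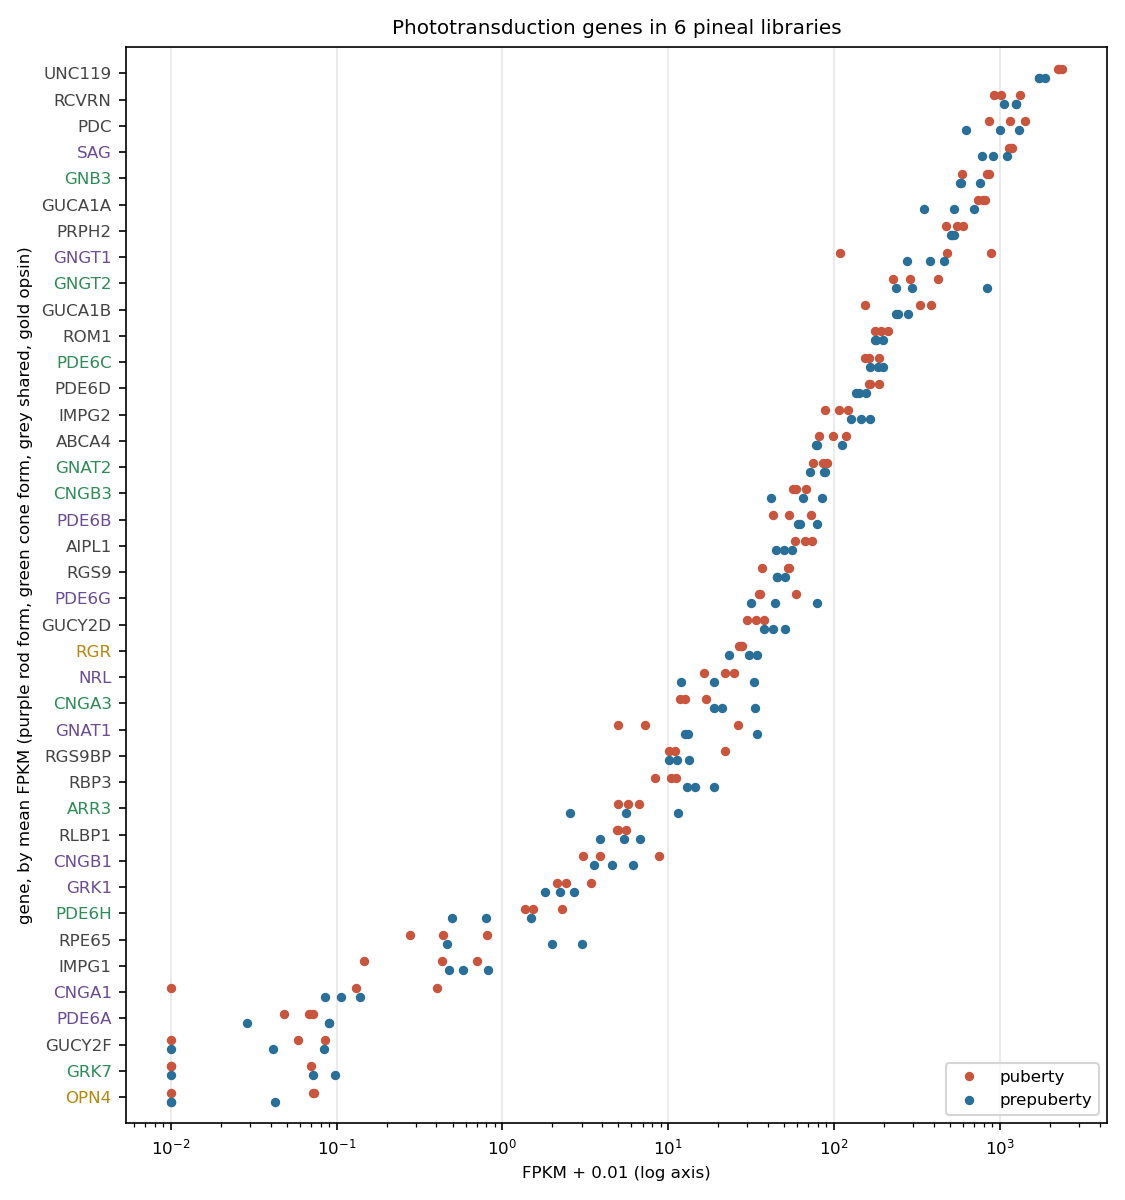
FPKM plus 0.01 of each of the 40 phototransduction genes on a log axis, 1 point per library, with puberty points above prepuberty points in each row. UNC119, RCVRN, PDC and SAG lie between 620.5 and 2383 FPKM, whereas CNGA1, PDE6A, GUCY2F, GRK7 and OPN4 lie below 1 FPKM in all 6 libraries.

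Rod and cone forms were both present, and which form was more abundant differed from step to step. The cone form was higher in 6 of 6 libraries for the transducin alpha subunit, for the catalytic subunit of PDE6 and for both channel subunits. The rod form was higher in 6 of 6 libraries for arrestin and for the inhibitory subunit of PDE6. The same held for the opsin kinase, with GRK1 grouped as the rod form. The gamma subunits of transducin were close to each other only in mean FPKM, with a ratio of rod to cone form of 1.12. In single libraries this ratio ran from 0.475 to 2.09. The listed lengths limit these comparisons, since 24 of the 40 genes have a length divisible by 3, as a coding sequence without untranslated regions would.

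For transducin alpha, the cone form GNAT2 had 90.4, 85.5 and 74.7 FPKM in puberty and 88.4, 71.9 and 86.5 FPKM in prepuberty. The rod form GNAT1 had 7.25, 26.2 and 4.98 FPKM in puberty and 13.2, 12.5 and 34.5 FPKM in prepuberty. GNAT2 was thus held within a narrow band while GNAT1 was high in puberty replicate 2 and prepuberty replicate 3. On the log2 scale the ratio of GNAT1 to GNAT2 was -3.64, -1.71 and -3.90 in puberty and -2.74, -2.52 and -1.33 in prepuberty, and the groups overlapped. The listed span of GNAT1 overlaps the gene SEMA3F on the same strand, so its counts are uncertain.

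For transducin gamma, the rod form GNGT1 had 479, 884 and 108 FPKM in puberty and 381, 276 and 458 FPKM in prepuberty. The cone form GNGT2 had 286, 423 and 228 FPKM in puberty and 235, 293 and 840.2 FPKM in prepuberty. Neither form was higher throughout, and each had 1 library far above the rest, puberty replicate 2 for GNGT1 and prepuberty replicate 3 for GNGT2. The likeness in mean FPKM rests on the listed lengths, which are 2022 nt for GNGT1 and 210 nt for GNGT2. In counts GNGT1 was the higher, with 19782, 33401 and 4429 in puberty and 15030, 11407 and 17895 in prepuberty, against 1227, 1661 and 968 for GNGT2 in puberty and 963, 1260 and 3409 in prepuberty.

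The catalytic subunits of PDE6 were mainly the cone form and 1 of the rod forms. The cone gene PDE6C had 164, 154 and 186 FPKM in puberty and 164, 185 and 198 FPKM in prepuberty. The rod gene PDE6B had 53.4, 72.8 and 43.1 FPKM in puberty and 60.9, 62.3 and 79.1 FPKM in prepuberty. PDE6B was below PDE6C in each library. PDE6A, which in rods pairs with PDE6B, had 2, 3 and 3 counts in puberty and 4, 1 and 4 counts in prepuberty, at or near the floor of 3 counts, which is 0.143 to 0.159 CPM in these libraries. In the retina the rod enzyme is a pair of PDE6A and PDE6B, so of that pair a single partner was found at a level well above the floor. The inhibitory subunit was of the rod form: PDE6G had 35.0, 58.6 and 35.8 FPKM in puberty and 44.2, 31.5 and 78.4 FPKM in prepuberty, while the cone form PDE6H had 2.27, 1.52 and 1.36 FPKM in puberty and 0.484, 0.785 and 1.47 FPKM in prepuberty.

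The cyclic GMP channel was of the cone form. CNGA3, the cone alpha subunit, had 16.96, 12.6 and 11.8 FPKM in puberty and 20.9, 33.4 and 18.7 FPKM in prepuberty. CNGA1, the rod alpha subunit, had 5, 15 and 0 counts in puberty and 3, 4 and 5 counts in prepuberty. Its highest library was again puberty replicate 2. CNGB3, the cone beta subunit, averaged 60.8 ± 5.95 FPKM in puberty and 63.7 ± 21.4 FPKM in prepuberty (SD, n = 3 each), and CNGB1, the rod beta subunit, 5.23 ± 3.08 FPKM in puberty and 4.74 ± 1.30 FPKM in prepuberty. The listed span of CNGB3 covers 4 other genes, 1 of them on the same strand, so its counts are uncertain.

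Arrestin was of the rod form. SAG had 1177, 1129 and 1160.4 FPKM in puberty and 906, 777 and 1097 FPKM in prepuberty. The cone arrestin ARR3 had 4.96, 6.70 and 5.70 FPKM in puberty and 5.52, 2.53 and 11.5 FPKM in prepuberty. The ratio of SAG to ARR3 lay between 95.3 and 306 in the 6 libraries. The opsin kinase GRK1, grouped here as the rod form, shuts off activated opsin by phosphorylation. GRK1 had 2.12, 3.39 and 2.41 FPKM in puberty and 2.21, 1.79 and 2.69 FPKM in prepuberty. The cone kinase GRK7 had 0, 0 and 2 counts in puberty and 2, 3 and 0 counts in prepuberty, no more than the floor of 3 counts in any library.

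**Figure D2:**
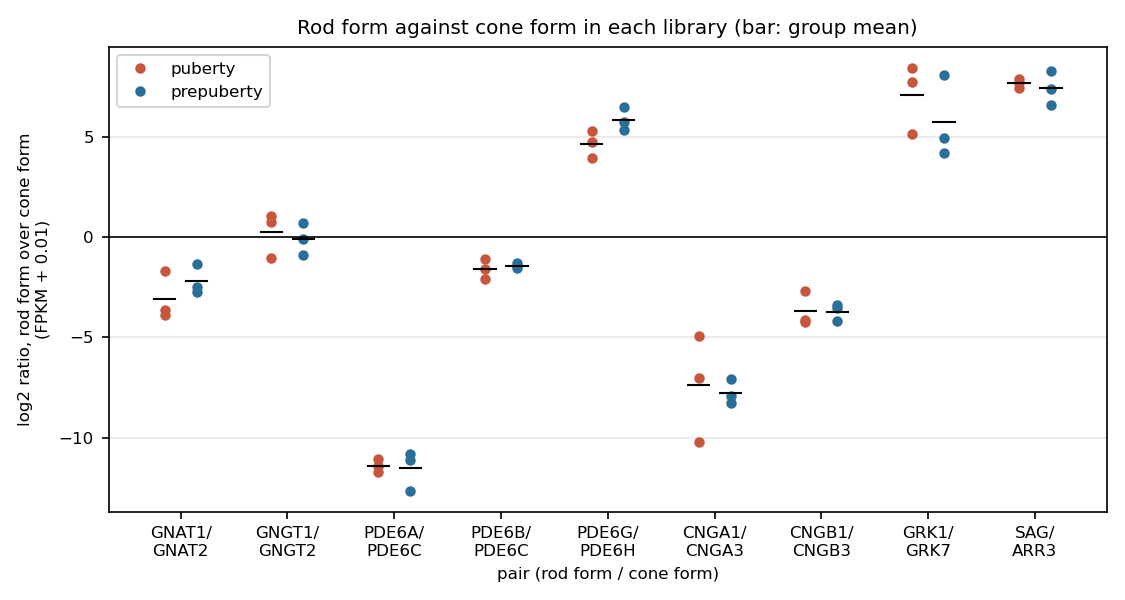
Log2 ratio of the rod form to the cone form, on FPKM plus 0.01, for 9 pairs in each library, with puberty left of prepuberty and a bar at each group mean. SAG/ARR3, PDE6G/PDE6H and GRK1/GRK7 lie above 0 in all 6 libraries, and the pairs of GNAT1, PDE6A, PDE6B, CNGA1 and CNGB1 lie below 0.

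A test of 3 libraries against 3 cannot pass the threshold, so whether the balance of rod and cone forms differed between the stages was not decided. Over the 9 pairs, the difference in mean log2 ratio, puberty minus prepuberty, ran from -1.20 to 1.35. In 1 pair, PDE6G to PDE6H, the groups did not overlap, with log2 ratios of 3.94, 5.26 and 4.71 in puberty and 6.48, 5.31 and 5.73 in prepuberty. Its exact two-sided permutation test gave p = 0.1, which is the smallest value that 3 libraries against 3 allow, or 0.9 after adjustment over the 9 pairs. The ratios that involve CNGA1, PDE6A and GRK7 depend on the pseudocount because of their few counts.

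Of the listed opsins, RGR and OPN4 had a row, and OPN4 was scarce. RGR encodes a retinal-binding opsin of the retinal pigment epithelium and Müller cells. RGR had 27.3, 27.8 and 26.6 FPKM in puberty and 34.4, 23.1 and 30.9 FPKM in prepuberty, and the puberty values lay within the prepuberty range. Its span overlaps LRIT1 on the other strand. The melanopsin gene OPN4 had 2, 0 and 2 counts in puberty and 1, 0 and 0 counts in prepuberty, none above the floor of 3 counts.

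Among the visual opsins, which were not on the list of 41 but on a second list of 51 pathway partners, the short-wavelength opsin OPN1SW (chromosome 4, 27388630 to 27391631, plus strand) was very uneven between libraries. It had 314, 526 and 147 counts in puberty and 2884, 277 and 24046 counts in prepuberty. As CPM these were 15.4, 28.2 and 7.29 in puberty and 148, 13.6 and 1249 in prepuberty, a range of 171-fold. Prepuberty replicates 1 and 3 were far above the rest, while prepuberty replicate 2 lay among the puberty libraries, so the groups overlapped. The log2 fold change was -4.80 (SE 1.86, adjusted p = 0.18) and the difference was not called. The long-wavelength opsin OPN1LW had 1, 0 and 1 counts in puberty and 1, 0 and 0 in prepuberty.

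Between the stages, UNC119 rose and RBP3 fell in puberty, and none of the other 33 tested genes passed. Of the 40 genes, 35 passed the filter on low counts and 5 did not (CNGA1, PDE6A, GUCY2F, GRK7 and OPN4). A call was an adjusted p under 0.05 in edgeR's quasi-likelihood test, adjusted over all 16588 genes tested. The 2 called genes are 5.71% of the 35, where 11.5% of all tested genes were called (5.85% higher and 5.64% lower). In 9 of the 35 genes, or 25.7%, the CPM of the groups did not overlap, against 34.8% of all tested genes. The median log2 fold change of the 35 was 0.01, equal to that of all tested genes, with 18 positive and 17 negative values from -1.86 to 0.91. The number called depended on the test. DESeq2 called 3 of the 35 higher and 5 lower, where it called 8.59% of all tested genes higher and 8.2% lower (16.8% in either direction), and with offsets for gene length edgeR called 0 of the 35, where it called 2.86% of all tested genes higher and 2.74% lower (5.61% in either direction).

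UNC119 (chromosome 19, 19839386 to 19844380, minus strand) had 36363, 31092 and 34272 counts in puberty and 24991, 26376 and 27117 counts in prepuberty, or 2383, 2228 and 2268 FPKM in puberty and 1713, 1725 and 1879 FPKM in prepuberty. After scaling it had 1786, 1666 and 1700.2 CPM in puberty and 1285, 1295 and 1409 CPM in prepuberty. The lowest puberty library was above the highest prepuberty library. The rise was 1.29-fold (log2 fold change 0.37, SE 0.09, adjusted p = 0.038). The call was lost in each fit that left out 1 of the 6 libraries, with adjusted p-values of 0.062 to 0.11 and log2 fold changes of 0.34 to 0.42. It was also lost with offsets for gene length, under which the log2 fold change was 0.23 (adjusted p = 0.16, where the 9 alternatives with all libraries ran from 0.0004 to 0.16). The listed length of UNC119 is 747 nt. Leaving out a library lowered the calls over all genes too, to 0 without prepuberty replicate 1.

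RBP3 (chromosome 28, 3494829 to 3506059, plus strand) encodes the protein that carries retinoids between photoreceptors and pigment epithelium in the eye. It had 904, 771 and 668 counts in puberty and 1004, 1185 and 1455 counts in prepuberty, or 11.1, 10.4 and 8.30 FPKM in puberty and 12.9, 14.6 and 18.9 FPKM in prepuberty. After scaling it had 44.4, 41.3 and 33.1 CPM in puberty and 51.6, 58.2 and 75.6 CPM in prepuberty. The groups did not overlap, and prepuberty replicate 3 was the highest library. The fall was 1.56-fold (log2 fold change -0.64, SE 0.16, adjusted p = 0.040). Without any 1 of the 6 libraries the call was lost, with adjusted p-values of 0.060 to 0.10 and log2 fold changes of -0.74 to -0.46. With offsets for gene length the log2 fold change was -0.56 (adjusted p = 0.079, in a range of 0.0041 to 0.11 over the 9 alternatives).

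**Figure D3:**
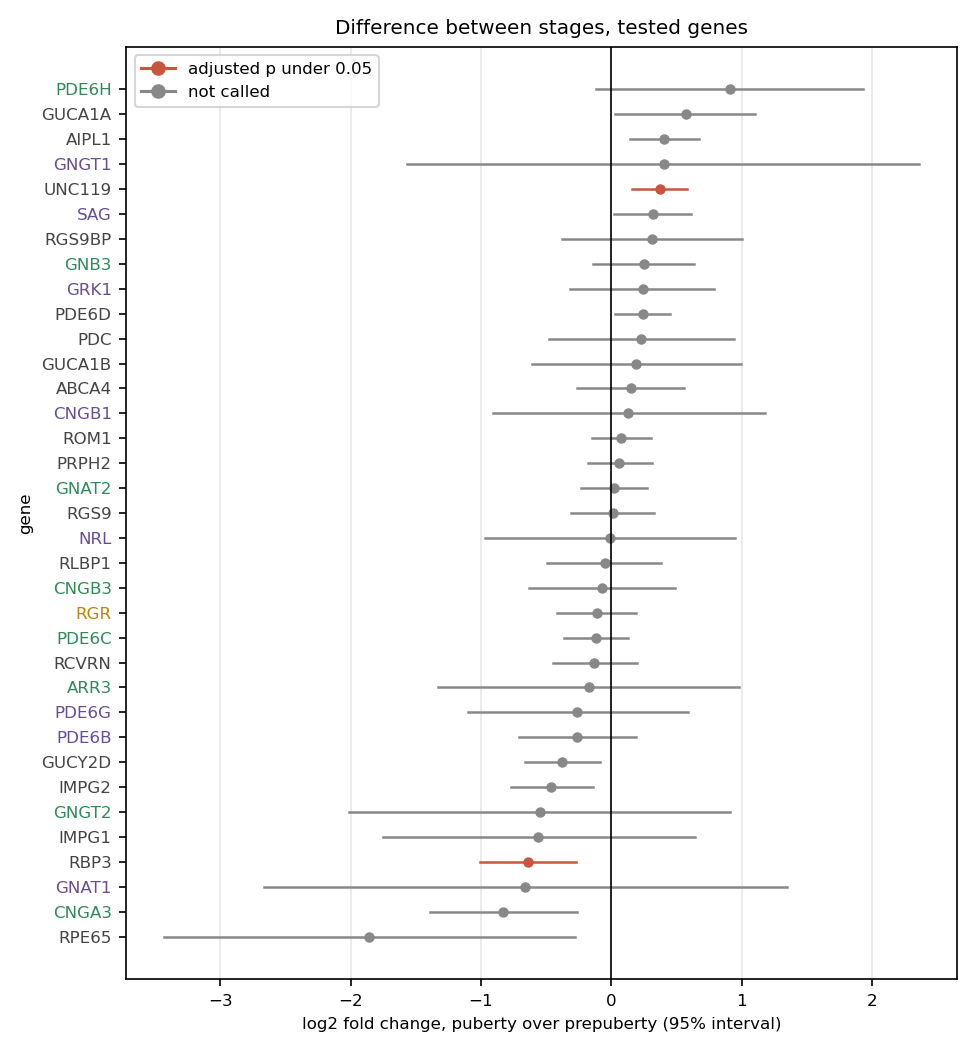
Log2 fold change, puberty over prepuberty, of the 35 tested genes with 95% intervals from the quasi-likelihood fit; red marks the 2 called genes. UNC119 lies at 0.37 and RBP3 at -0.64, and the widest intervals belong to GNGT1, GNAT1 and RPE65.

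The 5 tested members grouped as retinoid and interphotoreceptor matrix genes had negative log2 fold changes, with a median of -0.56. Of the 5, 1 was called, RBP3, where 11.5% of all tested genes were called. Retinoid genes of the partner list were mixed. Their log2 fold changes were 0.72 for DHRS3, 0.52 for LRAT, 0.27 for RDH5, 0.21 for RDH12 and 0.07 for RDH10. They were -0.02 for STRA6, -0.04 for RDH11 and -0.40 for RDH8. IMPG2, a proteoglycan of the matrix around photoreceptors, had 454, 399.9 and 328 CPM in puberty and 542, 472 and 611 CPM in prepuberty. Its groups did not overlap, but the difference did not pass (log2 fold change -0.46, SE 0.14, adjusted p = 0.065). RPE65, the retinoid isomerase of the pigment epithelium, had 14, 8 and 26 counts in puberty and 62, 15 and 94 counts in prepuberty, high in prepuberty replicates 1 and 3 as OPN1SW was. Its log2 fold change was -1.86 (SE 0.68, adjusted p = 0.12), and it passed without prepuberty replicate 2 (log2 fold change -2.30, adjusted p = 0.038). Of 8 other markers of pigment epithelium, 4 were tested and none was called. BEST1, a chloride channel of that epithelium, had 7, 8 and 21 counts in puberty and 31, 16 and 40 counts in prepuberty (log2 fold change -1.28, adjusted p = 0.15), also high in prepuberty replicates 1 and 3. MITF, a pigment cell transcription factor, had 62, 46 and 76 counts in puberty and 77, 91 and 94 counts in prepuberty (log2 fold change -0.52, adjusted p = 0.21), while the log2 fold change was 0.23 for TYRP1 (adjusted p = 0.36) and 0.31 for SLC45A2 (adjusted p = 0.43). TYR, PMEL, MLANA and DCT were each under 0.7 CPM in every library. The summed CPM of the 8 was 99.9 to 107 in puberty and 77.5 to 114 in prepuberty, carried by TYRP1, and the part of such cells in the RPE65 values was not tested. IMPG1, the second matrix proteoglycan, had 33, 6 and 20 counts in puberty and 26, 39 and 21 counts in prepuberty. RLBP1, a retinoid-binding protein of glia and pigment epithelium, had 18.9, 16.5 and 16.9 CPM in puberty and 18.4, 13.1 and 22.9 CPM in prepuberty, with a log2 fold change of -0.05 that turned to 0.02 with offsets for gene length and to 0.16 without prepuberty replicate 3.

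The guanylate cyclase genes did not move together. GUCY2D, the main cyclase of photoreceptors, had 129.7, 102 and 116 CPM in puberty and 147, 131 and 174 CPM in prepuberty (log2 fold change -0.38, SE 0.13, adjusted p = 0.088). The second cyclase, GUCY2F, had 0, 3 and 5 counts in puberty and 2, 5 and 0 counts in prepuberty. GUCA1A, a calcium-dependent activator of these cyclases, had 458, 503 and 488 CPM in puberty and 329, 217 and 434 CPM in prepuberty (log2 fold change 0.57, SE 0.23, adjusted p = 0.15). The groups of GUCY2D and of GUCA1A did not overlap, and the differences had opposite signs without passing. GUCA1B, the other activator, had 233, 93.4 and 201 CPM in puberty and 171, 149 and 143 CPM in prepuberty, and its groups overlapped.

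Of the transducin genes, 7 of 9 tested had positive log2 fold changes, as had 8396 of all 16588 tested genes. UNC119 alone was called, which is 11.1% of the 9, where 11.5% of all tested genes were called. Of the 7, GNGT1, GNAT2 and RGS9 turned negative under at least 1 other test or scaling of all libraries. GNB3, the cone beta subunit, had 849.6, 878 and 599.9 CPM in puberty and 596, 587 and 779.7 CPM in prepuberty, and the groups overlapped (adjusted p = 0.38). PDC had 1247, 1663 and 2057 CPM in puberty and 1449.9, 901 and 1892 CPM in prepuberty (adjusted p = 0.66). RGS9, which speeds the shut-off of transducin, averaged 47.5 FPKM in puberty and 47.1 FPKM in prepuberty. Its membrane anchor RGS9BP averaged 14.4 FPKM in puberty and 11.6 FPKM in prepuberty. RGS9 differed by a log2 fold change of 0.01 (95% interval -0.31 to 0.33), and RGS9BP by 0.31 (SE 0.30, adjusted p = 0.53). GNGT1 had a log2 fold change of 0.40 with an interval of -1.57 to 2.36, since its puberty values of 972, 1789 and 219.7 CPM lay on both sides of the prepuberty values of 773, 559.9 and 929.9. Without puberty replicate 2 its log2 fold change was -0.34, and without puberty replicate 3 it was 0.87 (adjusted p = 0.81 and 0.15).

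The PDE6 genes gave 3 positive and 3 negative log2 fold changes, none called, where 11.5% of all tested genes were called. AIPL1, the chaperone that PDE6 needs for folding, had 167, 143 and 183 CPM in puberty and 124, 111 and 139 CPM in prepuberty, without overlap (log2 fold change 0.40, SE 0.12, adjusted p = 0.058). AIPL1 passed without a count filter (adjusted p = 0.042) and with DESeq2 (adjusted p = 0.020). PDE6D, a carrier of prenylated proteins, had 72.1, 80.8 and 70.5 CPM in puberty and 59.2, 61.9 and 67.8 CPM in prepuberty (log2 fold change 0.24, SE 0.09, adjusted p = 0.13). The log2 fold change of PDE6C was -0.12 (95% interval -0.36 to 0.13) and that of PDE6B -0.26 (-0.71 to 0.19).

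Among the channel genes CNGA3 had the largest difference. It had 34.9, 25.8 and 24.2 CPM in puberty and 43.1, 68.7 and 38.6 CPM in prepuberty, without overlap (log2 fold change -0.83, SE 0.24, adjusted p = 0.070). With DESeq2 this difference passed (adjusted p = 0.0045), and over the other alternatives with all libraries and the fits without 1 library it did not. For arrestin, SAG had 2247, 2150.5 and 2216 CPM in puberty and 1732, 1486 and 2096 CPM in prepuberty, without overlap but with prepuberty replicate 3 close to the puberty libraries (log2 fold change 0.32, SE 0.13, adjusted p = 0.15). RCVRN, which holds back the opsin kinase at high calcium, had 1089, 987 and 1422 CPM in puberty and 1338, 1131 and 1346 CPM in prepuberty (adjusted p = 0.61).

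The disc membrane genes had log2 fold changes between 0.06 and 0.15 in 3 of 3, none called, where 11.5% of all tested genes were called. PRPH2, a tetraspanin that shapes the rims of outer segment discs, averaged 540.3 ± 64.3 FPKM in puberty and 516 ± 12.0 FPKM in prepuberty (SD, n = 3 each), and its partner ROM1 193 ± 18.0 FPKM in puberty and 184 ± 12.0 FPKM in prepuberty. The 95% intervals of their log2 fold changes were -0.18 to 0.31 and -0.15 to 0.30. ABCA4, a retinoid transporter of disc rims, averaged 99.3 ± 18.5 FPKM in puberty and 89.3 ± 18.7 FPKM in prepuberty. The log2 fold change of ABCA4 was 0.15 (-0.26 to 0.56). The span of ROM1 overlaps EML3 on the other strand, so a share of its counts is uncertain.

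The rod forms varied widely between libraries of 1 stage. The median within-group SD of log2 CPM was 0.56 for the 8 tested rod forms, 0.37 for the 8 tested cone forms, 0.24 for the 18 shared genes and 0.18 for all tested genes. Several rod forms had few counts. GNGT1, with 4429 to 33401 counts, had the widest range among the members with over 1000 counts in each library, 8.14-fold in CPM. Puberty replicate 2 was the highest puberty library for 6 of the 8 rod forms (75%), 3 of the 8 cone forms and 3 of the 18 shared genes. The share over all tested genes was 34.2%. Prepuberty replicate 3 was the highest prepuberty library for 7 of the 8 rod forms (87.5%), 6 of the 8 cone forms, 14 of the 18 shared genes (77.8%) and 33.8% of all tested genes. Prepuberty replicate 2 was the lowest for 7 of the 8 rod forms, 4 of the 8 cone forms and 9 of the 18 shared genes. It was also the lowest for 34.4% of all tested genes. Genes of 1 pathway are not independent, and no test was made of these counts.

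GNAT1 followed this pattern, with 156, 515 and 106 counts in puberty and 272, 270 and 701 counts in prepuberty. Its log2 fold change was -0.66, or -1.71 without puberty replicate 2 and 0.00 without prepuberty replicate 3 (adjusted p = 0.63, 0.14 and 1). NRL, the transcription factor that directs rod fate, had 63.0, 55.5 and 41.3 CPM in puberty and 48.0, 30.0 and 83.0 CPM in prepuberty. NR2E3, a rod transcription factor of the partner list, had 1, 28 and 3 counts in puberty and 1, 0 and 1 counts in prepuberty, with the highest value again in puberty replicate 2. CNGB1 had 15.6, 35.4 and 12.4 CPM in puberty and 24.8, 14.3 and 18.6 CPM in prepuberty. Puberty replicate 2 is also the library with high choroid plexus genes, TTR being at 10089.5 CPM there, and the part of that tissue in its rod values was not tested. Prepuberty replicate 3 had the highest choroid plexus sum of its group, at 872 CPM against 614 and 651, with TTR at 317 CPM against 88.5 and 75.3 in prepuberty replicates 1 and 2. OTX2, which pinealocytes also express, made up 523 to 573 CPM of the prepuberty sums. The part of that tissue in the values of prepuberty replicate 3 was not tested.

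**Figure D4:**
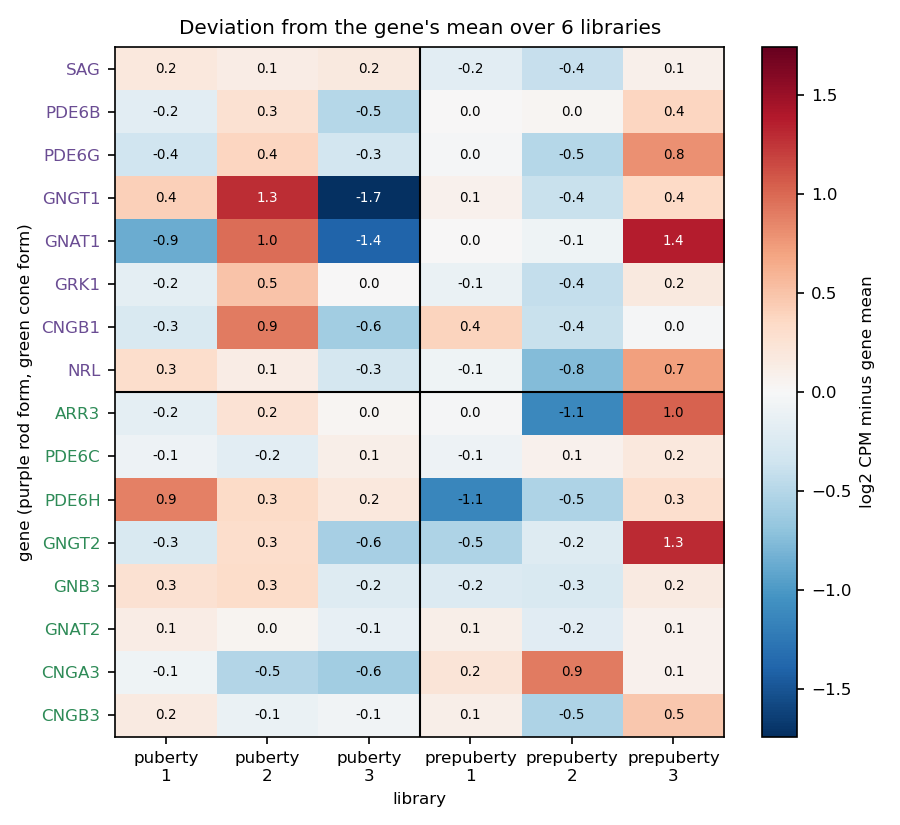
Log2 CPM of the 8 tested rod forms and the 8 tested cone forms minus each gene's mean over the 6 libraries, with puberty libraries left of prepuberty libraries. GNGT1 and CNGB1 are highest in puberty replicate 2, GNAT1 in prepuberty replicate 3, and puberty replicate 3 holds the lowest values of GNGT1, at -1.74, and GNAT1, at -1.40.

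Of the 51 pathway partners, 43 had a row and 39 were tested, of which 1 rose and 0 fell (2.56% called, against 11.5% of all tested genes, 5.85% higher and 5.64% lower). The median of their log2 fold changes was -0.12. An unadjusted p under 0.05 was found for 7 of the 39, against 4807 of all 16588 tested genes. The riser was DHRS3, a reductase that turns retinal back into retinol, with 17.8, 28.7 and 24.5 CPM in puberty and 14.5, 14.97 and 13.6 CPM in prepuberty (log2 fold change 0.72, SE 0.17, adjusted p = 0.034). No partner was called higher with the offsets for gene length or with a block for replicate number (2.86% and 2.21% of all genes called higher). None was called higher without puberty replicate 2 or puberty replicate 3 (1.59% and 4.33% of all genes). The same held without prepuberty replicate 1 or prepuberty replicate 2 (0% and 3.14% of all genes). Of the 15 tested pinealocyte markers, 1 was called higher and 1 lower, where 11.5% of all tested genes were called. ISL2, a LIM homeodomain factor, rose, with 484.7, 421.8 and 411.4 CPM in puberty and 301.3, 307.3 and 318.8 CPM in prepuberty (log2 fold change 0.51, adjusted p = 0.016). RORB, a nuclear receptor of the pineal gland and retina, fell, with 31.98, 27.1 and 31.2 CPM in puberty and 42.1, 49.1 and 44.9 CPM in prepuberty (log2 fold change -0.59, adjusted p = 0.016). CRX had a log2 fold change of -0.12 (SE 0.12, adjusted p = 0.53) and OTX2, a homeodomain factor of pinealocytes, of -0.09 (SE 0.11, adjusted p = 0.64).

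In the lists of astrocyte, microglia and oligodendrocyte markers, 3 of the 21 tested genes were called, all higher, where 11.5% of all tested genes were called. In the lists for neurons, endothelium, fibroblasts and choroid plexus, 0 of 8, 0 of 6, 0 of 5 and 0 of 4 tested genes were called. The summed CPM of 8 astrocyte markers was 6245 to 6465 in puberty and 4223 to 5823 in prepuberty, that of 8 microglia markers 154 to 268 in puberty and 121 to 165 in prepuberty, and that of 5 oligodendrocyte markers 226 to 247 in puberty and 254 to 369 in prepuberty. The microglia sums overlapped between the groups. The called genes were ALDH1L1 and ALDOC, 2 of 8 astrocyte markers, and TYROBP, 1 of 8 microglia markers, with 0 of 5 oligodendrocyte markers. The astrocyte markers AQP4, SLC1A2 and GJA1 had negative log2 fold changes of -0.28, -0.29 and -0.16. The part of such cells in the differences of UNC119 and RBP3 was not tested.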

How the data were processed

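RNA of 3 puberty and 3 prepuberty pineal libraries was compared. The deposited table gave whole-number counts per gene and FPKM values, both made by the authors; FPKM equalled count over listed length over 1 constant per library. The submitters' processing notes name HISAT2 2.0.5, DESeq2 1.20.0, fastp, CASAVA 1.8 and featureCounts 1.5.0-p3, and list human builds, while the gene IDs are those of goat. The table names no build, so coordinates are as it lists them, and strand use in counting is unstated.

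Counts were tested in edgeR 4.0.16 under R 4.3.3 by the quasi-likelihood F test with TMM scaling and filterByExpr at a minimum count of 10, and p-values were adjusted by Benjamini-Hochberg over 16588 genes. CPM used TMM-scaled totals. SE is the log2 fold change over the root of F. Ratios of rod to cone forms used FPKM plus 0.01 and exact two-sided permutation tests. Intervals cover only the variation among libraries in the fit, and floors cover only counting error. Alternatives were other filters, scalings and pseudocounts, limma 3.58.1, DESeq2 1.42.0, length offsets, a replicate block and leaving out each library. By rule, every member was named by its level, called members and the 6 next by adjusted p in full, rod and cone pairs by library, and partners if called. OPN1SW, OPN1LW, NR2E3, CRX, OTX2, ISL2, RORB and BEST1 were named after their values were seen. The other uncalled partners and the other cell type markers that are named were outside this rule as well. The members and lists were chosen with earlier results of these data known.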

Additional observations from a re-analysis of the deposited data

How the results depend on the processing

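RLE scaling and limma-voom kept both member calls. Without a count filter 2 members were called higher (4.49% of all genes) and 2 partners higher, and with a filter of 1 CPM in 3 libraries 2 partners were called higher (6.86% of all genes). DESeq2 called 3 members higher and 5 lower, and 3 partners higher and 1 lower: beside UNC119 and RBP3, these members were GUCA1A, AIPL1, GUCY2D, CNGA3, IMPG2 and RPE65 (adjusted p = 0.033, 0.020, 0.047, 0.0045, 0.015 and 0.036). With offsets for gene length, 475 genes were called higher and 455 lower over all genes, with 0 members in either direction and 0 partners higher. On log2(FPKM + 1) and log2(FPKM + 0.1) 0 members were called lower (3.82% and 3.94% of all genes), RBP3 having adjusted p = 0.059 and 0.057. The cause of these changes was not tested. The median of all genes moved by at most 0.02.

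The replicate numbers are shared by the groups, but same-numbered libraries did not deviate together (correlations 0.05, -0.10 and -0.10), and 2 of the 6 libraries correlated best with their own number. With the replicate block, 366 genes were called higher and 354 lower (2.21% and 2.13% of all genes), and 0 members and 0 partners. UNC119 then had adjusted p = 0.094 and RBP3 0.11.

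Leaving out each library in turn gave 0 to 728 genes higher and 0 to 540 lower, 0 members higher, 0 to 1 lower, and 0 to 1 partners higher and 0 lower. Median log2 fold changes ranged from -0.40 to 0.30 for rod forms and from -0.19 to 0.22 for cone forms. Differences in log2 ratio ranged from -1.58 to -0.45 for GNAT1/GNAT2, -0.08 to 0.99 for GNGT1/GNGT2, -0.44 to 0.46 for PDE6A/PDE6C, -0.42 to 0.09 for PDE6B/PDE6C, -1.51 to -0.85 for PDE6G/PDE6H, -0.84 to 1.79 for CNGA1/CNGA3, -0.47 to 0.32 for CNGB1/CNGB3, 0.57 to 2.51 for GRK1/GRK7 and -0.16 to 0.69 for SAG/ARR3.

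Several log2 fold changes changed sign. Under the block, ARR3 was 0.03, RGS9 -0.01 and NRL 0.09; with length offsets, GNAT2 was -0.04, CNGB3 0.12, RGR 0.01, RLBP1 0.02 and NRL 0.03. With limma-voom, ARR3 was 0.09, GNGT1 -0.02, RGS9 -0.01 and NRL 0.10. On log2(FPKM + 1), ARR3 was 0.03, GNGT1 -0.02, RGS9 0.00 and NRL 0.08, and on log2(FPKM + 0.1) ARR3 was 0.07, GNGT1 -0.02, RGS9 -0.01 and NRL 0.09. Over the leave-one-out fits, 15 members changed sign: ARR3 (-0.55 to 0.53), PDE6G (-0.54 to 0.20), GNGT1 (-0.34 to 0.87), GNGT2 (-0.85 to 0.25), GNAT2 (-0.06 to 0.09), GUCA1B (-0.06 to 0.49), CNGB1 (-0.45 to 0.41), CNGB3 (-0.29 to 0.20), PRPH2 (-0.01 to 0.16), PDC (0.00 to 0.51), RGR (-0.25 to 0.02), RLBP1 (-0.23 to 0.16), RGS9 (-0.08 to 0.17), RGS9BP (-0.14 to 0.51) and NRL (-0.29 to 0.46).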
